A study of Mus musculus with 6 samples.

Results

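Cathepsins and legumain are proteases that break down proteins in lysosomes. RNA of 10 of these genes (Ctsa, Ctsb, Ctsc, Ctsd, Ctsh, Ctsk, Ctsl, Ctss, Ctsz and Lgmn), out of 16623 genes measured, was followed by single-cell RNA sequencing across the cell classes of the mouse liver. The genes were picked by name as lysosomal proteases and with their difference between the genotypes already known, so that difference is given below as a description, from which nothing is called. The livers came from 3 wild-type and 3 SIRT7-/- mice aged 5 to 6 months. SIRT7-/- mice carry a constitutive knockout of the histone deacetylase SIRT7 and were used as a model of fatty liver disease that arises on a chow diet. The labels name no other allele, drug or diet in either group. Hepatocytes and nonparenchymal cells were freed by collagenase perfusion, recombined and loaded on the 10x Genomics Chromium platform, with 1 library per mouse. The labels give neither the strain nor the sex of these mice.

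Most cathepsins are cysteine proteases, with Ctsd, an aspartic protease, and Ctsa, a serine carboxypeptidase that also shields other lysosomal enzymes, as exceptions. Legumain, encoded by Lgmn, cuts after asparagine and matures several of the cathepsins. Most are made as inactive precursors and carried to endosomes and lysosomes, and most are activated at low pH. Cystatins hold the cysteine proteases among them in check. In the liver, Kupffer cells (the resident macrophages) and sinusoidal endothelial cells take up and degrade material from the blood, and in antigen-presenting cells cathepsins trim antigens and the invariant chain of MHC class II.

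The 10 genes lie on 7 mouse chromosomes (GRCm38, GENCODE vM21), and all are protein coding. Ctsd is on chromosome 7 from 142375911 to 142388038 (minus strand), as is Ctsc from 88278085 to 88310888 (plus strand). Lgmn is on chromosome 12 from 102394084 to 102439813 (minus strand), Ctsb on chromosome 14 from 63122462 to 63145923 (plus strand) and Ctsl on chromosome 13 from 64359337 to 64370890 (minus strand). Ctsa (164832873 to 164841032, plus strand) and Ctsz (174427493 to 174439039, minus strand) are both on chromosome 2, and Ctsh is on chromosome 9 from 90054152 to 90076089 (plus strand). Ctsk (95499256 to 95509362) and Ctss (95526786 to 95556403) are neighbours on the plus strand of chromosome 3 with 17423 bases between them.

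Many lysosomal genes carry, near their start, the E-box CACGTG or its longer form TCACGTGAC, which the factor TFEB and its relatives can bind. The 250 bases before each start were searched on both strands in the RefSeq promoter sequences (GRCm38.p6), in which 8 of the 10 genes were found with 10 starts (Ctsb and Ctsh were not matched). CACGTG was present before 4 of these 10 starts, against 6.02% of all 32851 starts, and the overlapping TCACGTGAC before 2 of them, those of Ctsd and Ctsa, against 0.621% of all starts. These stretches are shown because Ctsd is the gene with the largest difference between the genotypes below and held 2 copies, as 0.429% of all starts did. The capitals mark CACGTG, and each stretch reads 5′ to 3′ on the strand of its gene.
Ctsd, 245 bases before the start, chr7:142388055-142388077, minus strand: tccccCACGTGacctgtatccag
Ctsd, 98 bases before the start, chr7:142387908-142387937, minus strand: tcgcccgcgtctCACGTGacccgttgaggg
Ctsa, 12 bases before its second start, chr2:164833749-164833772, plus strand: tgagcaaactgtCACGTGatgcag
Ctsl, 236 bases before the start, chr13:64370739-64370768, minus strand: ggcgttagaagcCACGTGctgatctaaatt
Lgmn, 49 bases before its second start, chr12:102439124-102439153, minus strand: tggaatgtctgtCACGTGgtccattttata
The RefSeq start of Ctsd lies inside the gene as GENCODE draws it, so the second Ctsd stretch falls within that annotated gene. The Ctsa, Ctsl and Lgmn stretches likewise fall within their annotated genes. A match is a description of the letters and was not tested as a binding site. Of the members that hold CACGTG, Ctsd (log2 difference 1.34), Ctsl (0.36) and Ctsa (0.23) had a higher mean in SIRT7-/- macrophages in the comparison below. Lgmn (-0.43) had a lower mean. A link between the motif and these differences was not tested. GAGGAAGT, a motif of the myeloid factor PU.1, was found in the window of 1 member, Ctsc, against 2.44% of all starts. That window is shown whole, with the match, which lies on the other strand, in capitals.
Ctsc, chr7:88277835-88278084, plus strand: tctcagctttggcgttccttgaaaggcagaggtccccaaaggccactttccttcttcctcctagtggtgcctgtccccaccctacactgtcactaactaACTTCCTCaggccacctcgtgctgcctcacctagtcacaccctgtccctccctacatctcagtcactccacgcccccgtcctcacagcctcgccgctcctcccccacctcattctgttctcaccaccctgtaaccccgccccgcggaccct

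The table held 11610 cells, from 552 to 5609 per mouse, with 2511947 to 11069411 unique molecular identifiers (UMIs, each counting 1 captured RNA molecule) per mouse. Sirt7 itself was at 0.512 to 0.718 UMIs per 10000 in the wild-type libraries and at 0.0814 to 0.139 in the SIRT7-/- libraries, as the labels say. Only 13 barcode sequences, in 26 cells, occurred in more than 1 library. Clustering gave 3713 macrophage-like, 2941 hepatocyte-like, 1987 T-like, 1494 dendritic-like, 533 endothelial-like, 439 plasma B-like, 302 neutrophil-like, 161 B-like and 40 stellate-like cells, each named from marker genes, and none of the 10 genes was among the 1000 genes used to cluster. The hepatocyte-like cells formed 2 clusters of 1750 and 1191 cells, the larger led by haemoglobin genes beside hepatocyte genes. The dendritic-like class also held monocyte-like, basophil-like and cycling cells. The libraries differed in make-up, with hepatocyte-like cells at 9.14% to 64.3% of a library, so every value below is a mean over the cells of 1 class in 1 mouse, in UMIs per 10000 UMIs of the cell (CP10K), and the mouse is the replicate. A mouse entered a class with 20 or more cells, which left SIRT7-/- mouse 3 out of the endothelial-like class (8 cells). Wild-type mouse 1 (12 cells) and SIRT7-/- mouse 3 (14 cells) were left out of the plasma B-like class. The neutrophil-like class lost wild-type mice 2 (9 cells) and 3 (15) and SIRT7-/- mouse 3 (17), which left 1 wild-type mouse. Wild-type mouse 2 (15 cells) and SIRT7-/- mouse 3 (2 cells) were left out of the B-like class. No mouse had 20 stellate-like cells, so that class was not ranked below. UMIs are taken near the 3′ end and are not scaled by transcript length, so levels of different genes compare captured molecules.

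Macrophage-like cells carried the most cathepsin and legumain RNA. The 10 genes together were at 135 ± 16.4 CP10K (SD, n = 6 mice), or 1.35% of all UMIs of these cells. Endothelial-like cells followed at 44.3 ± 6.02 CP10K (n = 5), dendritic-like cells at 33.5 ± 8.79 (n = 6), and neutrophil-like cells at 22.3 ± 7.59 (n = 3), and in B-like cells they took 0.130% of UMIs (n = 4). T-like cells (10.2 ± 1.59, n = 6), hepatocyte-like cells (9.81 ± 3.32, n = 6) and plasma B-like cells (7.01 ± 0.883, n = 4) were lowest. These levels, with the make-up of each class, are descriptions over mice of both genotypes and carry no test.

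**Figure D1:**
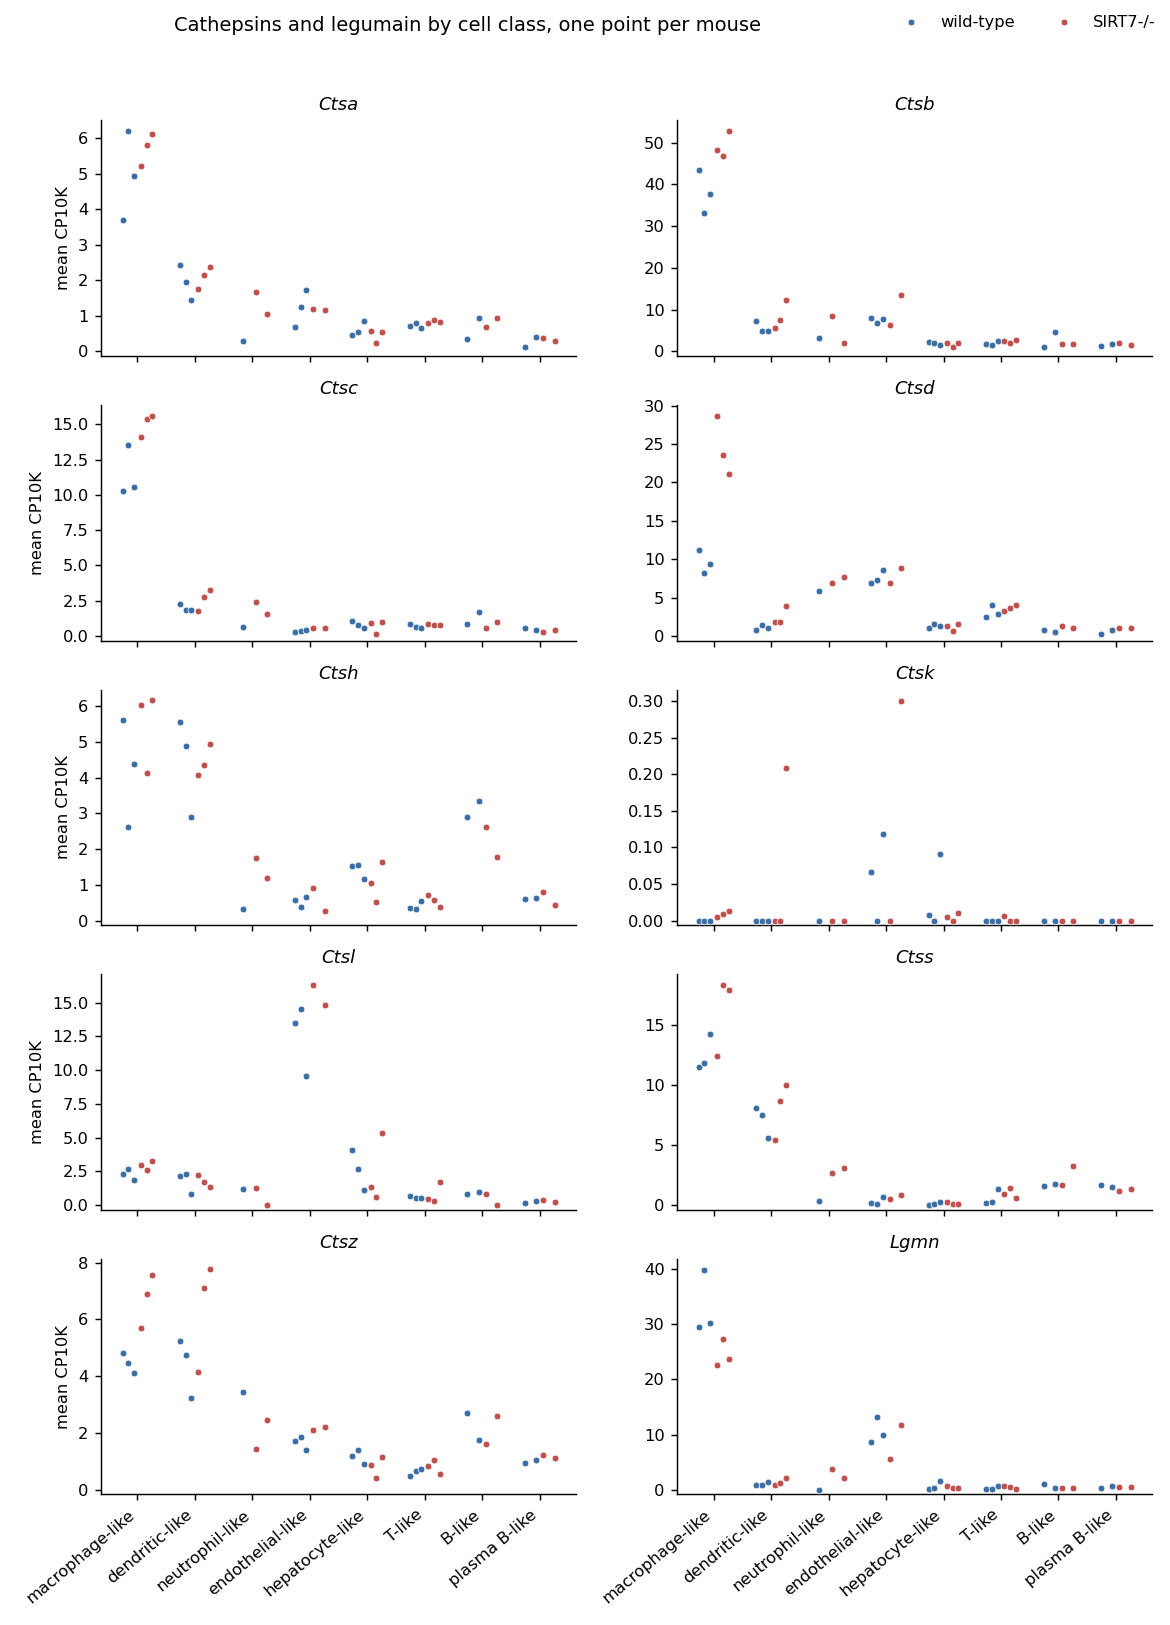
Mean CP10K of each of the 10 genes (1 panel per gene, vertical axes from 0 and of different height) in each cell class, with 1 point per mouse coloured by genotype and only mice with 20 or more cells of the class. Ctsb, Lgmn, Ctsc and Ctss stand highest in macrophage-like cells in every mouse, Ctsl in endothelial-like cells, and Ctsk is near 0 throughout.

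The macrophage was the class with the highest mean for 8 of the 10 genes. Ctsb, the most abundant, was at 43.7 ± 7.18 CP10K in macrophage-like cells, 5.16-fold the endothelial-like level of 8.47 ± 2.94, and no mouse of the first class overlapped with a mouse of the second. Further down the order of Ctsb, dendritic-like (7.05 ± 2.81), neutrophil-like (4.53 ± 3.51), B-like (2.26 ± 1.57), T-like (2.13 ± 0.508), hepatocyte-like (1.83 ± 0.482) and plasma B-like cells (1.63 ± 0.323) each overlapped with the next class. Ctsc, an exopeptidase that activates granule serine proteases, was at 13.2 ± 2.32 CP10K in macrophage-like cells, 5.81-fold the dendritic-like level of 2.28 ± 0.610, again with no overlap. Ctsa was at 5.33 ± 0.943 in macrophage-like and 2.02 ± 0.377 in dendritic-like cells with no overlap, and between 0.297 and 1.20 in all the other classes.

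Lgmn and Ctss separated the classes in different ways. Lgmn was at 28.8 ± 6.19 CP10K in macrophage-like and 9.78 ± 2.88 in endothelial-like cells, with no overlap between these classes or between the second and the next, neutrophil-like cells at 1.99 ± 1.88. Dendritic-like cells had 1.19 ± 0.484 CP10K of Lgmn, and the 4 remaining classes were between 0.384 and 0.564, overlapping with one another in order. Ctss, the protease best known for trimming the invariant chain in antigen-presenting cells, was at 14.4 ± 3.06 CP10K in macrophage-like and 7.53 ± 1.78 in dendritic-like cells, and the ranges of mice did not overlap down to B-like cells at 2.08 ± 0.767. Endothelial-like cells were at 0.452 ± 0.311 CP10K of Ctss and hepatocyte-like cells, the lowest class, at 0.143 ± 0.0904. With every cell thinned to 500 UMIs, a Ctss UMI was found in 49.0% of macrophage-like cells and in 0.458% of hepatocyte-like cells, and a Ctsb UMI in 84.7% and 7.88%. Unthinned, at median depths of 2270 UMIs in macrophage-like cells and 1245.5 and 2244 in the 2 hepatocyte-like clusters, the shares were 88.7% and 2.39% for Ctss and 98.1% and 27.0% for Ctsb.

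Ctsl, an endopeptidase, was the member with a different leading class. It was at 13.7 ± 2.55 CP10K in endothelial-like cells, from 9.56 to 16.3 over 5 mice, which was 5.26-fold the macrophage-like level of 2.61 ± 0.490 with no overlap. Macrophage-like, hepatocyte-like (2.54 ± 1.87) and dendritic-like cells (1.78 ± 0.585) overlapped in their Ctsl levels, and plasma B-like cells were lowest at 0.270 ± 0.109. Ctsz and Ctsh did not tell macrophage-like from dendritic-like cells: Ctsz was at 5.60 ± 1.38 and 5.36 ± 1.75 CP10K and Ctsh at 4.83 ± 1.37 and 4.45 ± 0.915, with the mice of both classes intermixed. Ctsh was also at 2.66 ± 0.655 in B-like cells, above every mouse of the next class, hepatocyte-like cells at 1.24 ± 0.422, and was lowest in T-like cells at 0.484 ± 0.152.

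Ctsd was found at several CP10K in more than 1 class. It was at 17.0 ± 8.54 CP10K in macrophage-like cells, overlapping with endothelial-like cells at 7.69 ± 0.954, which overlapped with neutrophil-like cells at 6.80 ± 0.904. T-like cells followed without overlap at 3.38 ± 0.640, ahead of dendritic-like cells at 1.82 ± 1.14, and the lowest class, plasma B-like cells, was at 0.774 ± 0.353. Ctsk, known from bone-resorbing osteoclasts, was barely captured, with 23 UMIs in 23 of the 11610 cells. Among the ranked classes its highest mean was 0.0972 ± 0.124 CP10K, in endothelial-like cells. The 40 stellate-like cells, which were not ranked, held 2 Ctsk UMIs, or 0.301 CP10K as a mean over all these cells.

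The classes differed in how these levels were mixed, given here as mean shares over mice. Ctsb (32.2%) and Lgmn (21.8%) had the largest mean shares of the cathepsin and legumain RNA of macrophage-like cells, where Ctsb led in 5 of 6 mice. The share of Lgmn there was 24.0% to 32.4% in wild-type and 15.3% to 18.1% in SIRT7-/- mice, and that of Ctsd 6.70% to 9.12% and 13.7% to 19.7%. Ctsl (31.3%, leading in 4 of 5 mice), Lgmn (22.0%) and Ctsb (18.8%) had the largest shares in endothelial-like cells, and Ctss (22.6%, leading in 4 of 6) and Ctsb (20.6%) in dendritic-like cells. Ctsd led in T-like cells (33.6%) in 6 of 6 mice and in neutrophil-like cells (32.4%) in 2 of 3. No member led in most mice of the hepatocyte-like or B-like class, Ctsl (23.4%) and Ctsb each leading in 3 of 6 mice of the first and Ctsh (20.5%) in 2 of 4 of the second.

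**Figure D2:**
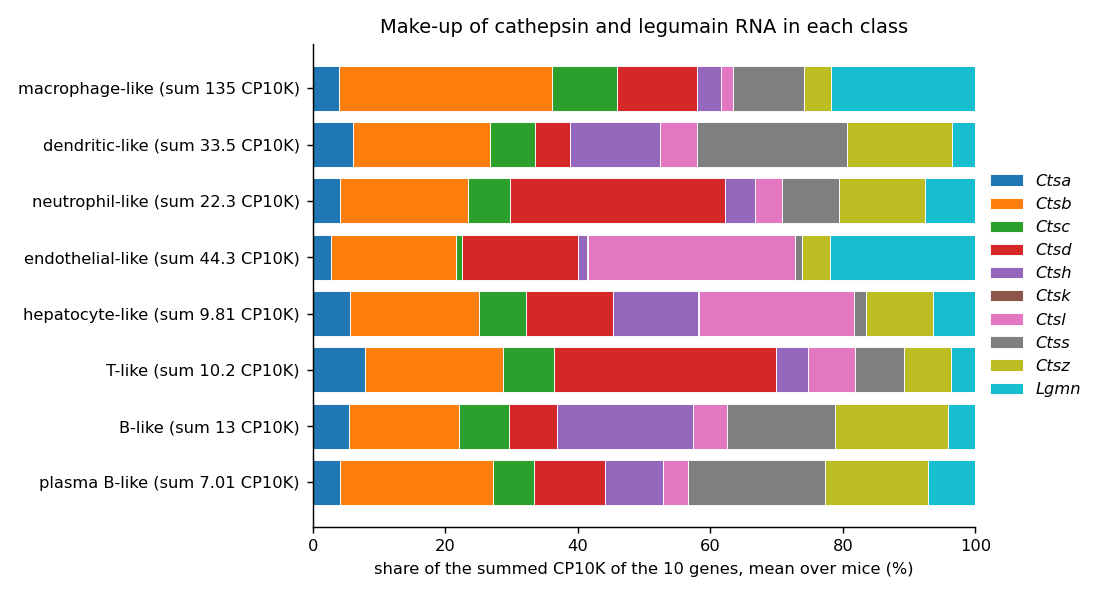
Stacked bars of the share of the summed CP10K of the 10 genes that each gene takes in each class, as the mean over mice in percent. Ctsb (32.2%) and Lgmn (21.8%) are the largest parts of the macrophage-like bar, Ctsl is the largest part of the endothelial-like bar at 31.3%, and Ctsd the largest of the T-like bar at 33.6%.

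Within the broad classes the genes parted further, given here as means over all cells of a subcluster. Inside the dendritic-like class, 200 plasmacytoid-like cells stood out for Ctsl at 10.3 CP10K, against 0.267 to 0.899 in the other subclusters of at least 20 cells, and had 11.7 of Ctsb and 6.60 of Ctsh. An unnamed subcluster of 277 cells led by Ace and Fcgr4, genes of patrolling monocytes, had 11.7 of Ctss, 7.53 of Ctsz and 4.11 of Ctsd. Monocyte-like cells (215 cells) had 11.0 of Ctss and 4.07 of Ctsc. The larger dendritic 2-like subcluster (270 cells) had 6.38 of Ctss and 5.08 of Ctsh, and dendritic 1-like cells (249 cells) only 2.86 and 1.97. Among T-like cells, a finer group of 405 cells led by the natural killer genes Ncr1 and Klre1 had 5.04 CP10K of Ctsd, against 2.85 in the 1272 cells led by Cd3e and Cd3g. Over mice with 20 or more cells, these were 5.31 ± 0.592 (SD, n = 3) and 2.94 ± 0.763 (n = 5). SIRT7-/- mouse 1 gave 222 of the 405 cells and 122 of the 200 plasmacytoid-like cells.

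Among macrophage-like cells, 2594 Kupffer-like cells led by Clec4f, Vsig4 and Timd4 had 52.9 CP10K of Ctsb, 30.2 of Ctsd and 27.8 of Lgmn. A group of 478 cells led by Retnla and Cx3cr1 had less of each, with 30.7 of Ctsb, 11.6 of Ctsd and 11.6 of Lgmn. The means over all cells weigh SIRT7-/- mouse 1 most, which gave 1980 of the Kupffer-like cells. Over mice, Kupffer-like Ctsb was at 50.8 ± 9.60, Lgmn at 34.6 ± 6.12 and Ctsd at 20.5 ± 10.1 CP10K (SD, n = 6), so Lgmn came before Ctsd when mice were weighed equally. Ctss had no common order between the 2 groups, at 14.1 in the cells led by Retnla and Cx3cr1 against 16.3 in the Kupffer-like cells of wild-type mouse 3, 14.3 against 12.7 in SIRT7-/- mouse 1 and 21.3 against 19.1 in SIRT7-/- mouse 2.

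The comparison of genotypes asked, for each class, how the 10 genes stood in SIRT7-/- mice against wild-type mice. Differences are of log2(mean CP10K + 0.05), with the standard error (SE) from limma, over genes whose average reached 0.05 CP10K. In macrophage-like cells 9 members passed this filter, of which 8 had a higher mean in SIRT7-/- mice than in wild-type mice and 1, Lgmn, a lower mean. Their median difference was 0.38, against -0.03 over all 9945 genes tested. For 4 members (Ctsb, Ctsc, Ctsd and Ctsz) all SIRT7-/- mice stood above all wild-type mice, as for 7.14% of all genes tested, and for Lgmn all stood below, as for 9.86%. Because the members were chosen with this contrast known, nothing is read from these counts.

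Ctsd had the largest difference of the 10. Its levels were 11.2, 8.22 and 9.42 CP10K in wild-type mice 1, 2 and 3 and 28.7, 23.6 and 21.1 in SIRT7-/- mice 1, 2 and 3. The groups were far apart, the lowest SIRT7-/- mouse lying at 21.1 and the highest wild-type mouse at 11.2. The difference was 1.34 ± 0.177 (log2, SE), or 2.54-fold, and rested on 145 to 559 Ctsd UMIs per wild-type mouse and 1235 to 17543 per SIRT7-/- mouse.

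Lgmn went the other way. It was at 29.4, 39.8 and 30.2 CP10K in wild-type mice 1, 2 and 3 and at 22.5, 27.2 and 23.6 in SIRT7-/- mice 1, 2 and 3. All 3 SIRT7-/- mice lay below all 3 wild-type mice, by a difference of -0.43 ± 0.163 (log2, SE), or 0.743-fold. Within the same cells, the number of Ctsd UMIs per Lgmn UMI was 0.349 ± 0.0852 in wild-type and 1.15 ± 0.140 in SIRT7-/- mice (SD, n = 3 each).

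The remaining abundant members had smaller differences. Ctsb was at 43.5, 33.2 and 37.7 CP10K in wild-type and 48.3, 46.7 and 52.7 in SIRT7-/- mice, a difference of 0.38 ± 0.148 without overlap. Ctsc was at 10.3, 13.6 and 10.5 against 14.1, 15.4 and 15.6 (0.40 ± 0.165) with the highest wild-type mouse just under the lowest SIRT7-/- mouse. Ctsz, an exopeptidase also called cathepsin X, was at 4.83, 4.47 and 4.13 against 5.69, 6.91 and 7.55 (0.57 ± 0.178), again without overlap. Ctsa (0.23 ± 0.206), Ctsh (0.41 ± 0.266), Ctsl (0.36 ± 0.203) and Ctss (0.36 ± 0.186) had mice of both groups intermixed. Ctss, for example, was at 11.5, 11.9 and 14.2 CP10K in wild-type and 12.4, 18.3 and 17.9 in SIRT7-/- mice. Ctsk was at 0 in all wild-type mice and had 1 to 3 UMIs per SIRT7-/- mouse, too few to compare. The ratio of Ctsd to Ctsb UMIs was 0.252 ± 0.0127 in wild-type and 0.508 ± 0.0781 in SIRT7-/- mice, so Ctsd differed more than Ctsb in the same cells.

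**Figure D3:**
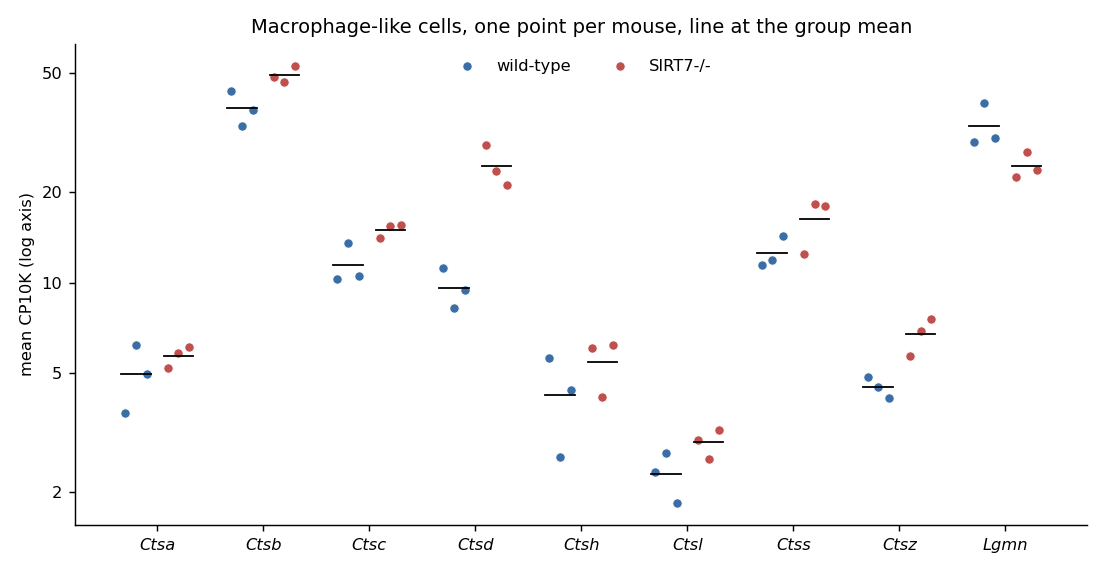
Mean CP10K on a log axis of the 9 members detected in macrophage-like cells, with 1 point per mouse coloured by genotype and a line at each group mean. The 3 SIRT7-/- mice lie above the 3 wild-type mice for Ctsb, Ctsc, Ctsd (21.1 to 28.7 against 8.22 to 11.2) and Ctsz, and below them for Lgmn.

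The Ctsd difference was present in each finer macrophage group that could be compared. In Kupffer-like cells Ctsd was at 13.3, 9.49 and 11.4 CP10K in wild-type and 32.3, 29.3 and 26.9 in SIRT7-/- mice, or 11.4 ± 1.90 against 29.5 ± 2.70 (SD, n = 3). In the other groups only wild-type mouse 3 and SIRT7-/- mice 1 and 2 had 20 or more cells. There Ctsd was at 5.24 against 13.3 and 12.1 in the cells led by Retnla and Cx3cr1, at 9.47 against 22.7 and 18.0 in 406 cells led by Ccl24, and at 8.35 against 17.3 and 17.5 in 172 cycling cells. Lgmn kept its lower values in Kupffer-like cells, at 35.8, 41.1 and 40.5 in wild-type against 25.2, 35.0 and 30.2 in SIRT7-/- mice. In wild-type mouse 3 against the mean of SIRT7-/- mice 1 and 2, it was also lower in the cells led by Ccl24 (25.8 against 17.6) and in the cycling cells (25.8 against 19.4). Lgmn was alike in the cells led by Retnla and Cx3cr1, at 10.9 against 11.4 and 11.3. Kupffer-like cells made up 50% to 74.5% of the macrophage-like cells of wild-type mice and 57.5% to 74.8% of those of SIRT7-/- mice.

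**Figure D4:**
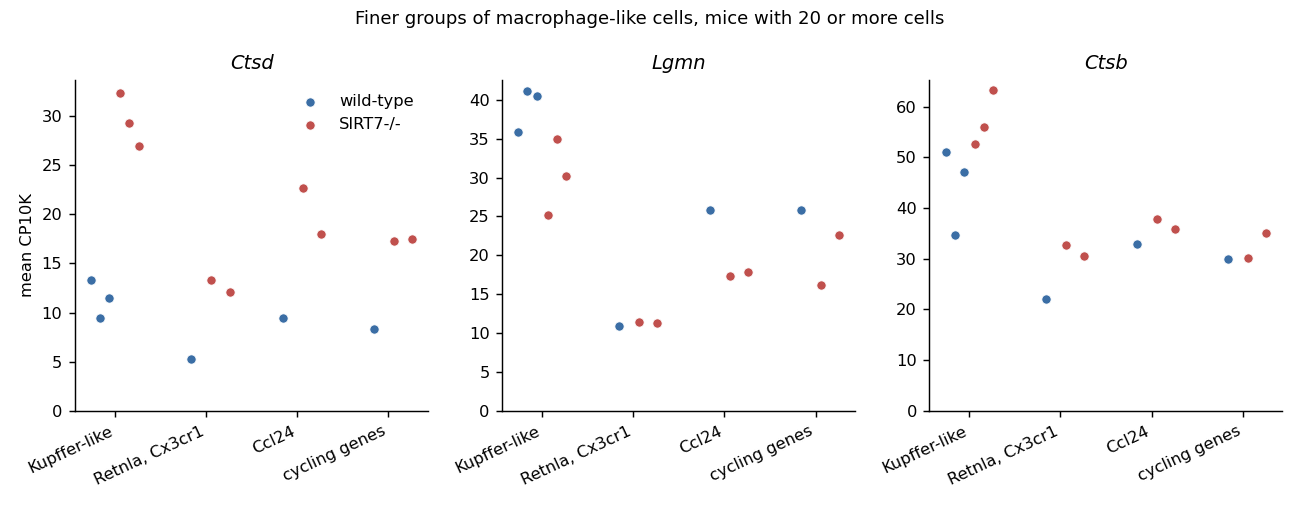
Mean CP10K, on axes from 0, of Ctsd, Lgmn and Ctsb (1 panel each) in the finer groups of macrophage-like cells, with 1 point per mouse with 20 or more cells, coloured by genotype. Ctsd is higher in the SIRT7-/- points of each group. Lgmn is lower in Kupffer-like cells (25.2 to 35.0 against 35.8 to 41.1), in the cells led by Ccl24 and in the cycling cells. It is near 11 in both genotypes in the cells led by Retnla and Cx3cr1.

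Other RNA in the macrophage-like cells differed between libraries as well. The summed level of 10 hepatocyte markers was 50.8 to 147 CP10K in wild-type and 15.6 to 68.2 in SIRT7-/- mice, with 1 of the 10 higher in SIRT7-/- mice and none at 0. The 10 macrophage markers summed to 193 to 234 against 226 to 260 (7 of 10 higher), 9 neutrophil markers to 0.330 to 0.746 against 0.371 to 9.38 (9 of 9 higher), and 8 immediate early genes, which respond to tissue handling, to 14.6 to 21.2 against 5.63 to 12.6 (2 of 8 higher). The 10 dendritic markers summed to 1.55 to 4.30 in wild-type and 4.33 to 5.27 in SIRT7-/- mice (10 of 10 higher) and the 10 endothelial markers to 0.820 to 1.09 against 1.15 to 1.40 (5 of 10 higher), both without overlap. An unnamed finer group of 61 macrophage-like cells was led by Siglech and Bcl11a, which are among the dendritic markers. It came from SIRT7-/- mice 1 (35 cells) and 2 (22) and wild-type mouse 3 (4), and its part in these sums was not tested. T cell markers (0.165 to 3.42 against 1.25 to 5.35) and stellate markers (0.0865 to 0.736 against 0.398 to 3.18) were higher for 10 of 10 genes each, with the mice overlapping. No marker of these lists was at 0. Median UMIs per macrophage-like cell ran from 2248.5 to 3897 in wild-type and from 2100 to 6493.5 in SIRT7-/- mice. With hepatocyte genes left out of the scale, an alternative chosen after seeing the data, Ctsd differed by 1.30 and Lgmn by -0.47 (log2). The part of the other marker lists in the differences was not tested.

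In dendritic-like cells all 9 members tested had a higher mean in SIRT7-/- mice, with a median difference of 0.34 against -0.04 over all 9730 genes tested, but mice of the 2 groups overlapped for each member except Ctsd. Ctsd was at 0.817, 1.37 and 1.03 CP10K in wild-type and 1.85, 1.87 and 3.97 in SIRT7-/- mice, a difference of 1.15 ± 0.303. It was 0.80 without SIRT7-/- mouse 3, and 0.32 from means of log2(CP10K + 1) over cells. That is 1 of 9 members with all SIRT7-/- mice above all wild-type mice, against 4.1% of all genes, and none had them all below (7.06% of all genes). SIRT7-/- mouse 3 was highest for Ctsd and also for Ctsb (12.3, against 4.79 to 7.48 in the other mice) and Lgmn (2.08, against 0.819 to 1.35), and had 50 dendritic-like cells. The unnamed subcluster led by Ace and Fcgr4, which had more Ctsd than the class as a whole, was 38% of the dendritic-like cells of that mouse, against 18.1% to 32.1% in wild-type mice and 12.7% and 24.6% in the other SIRT7-/- mice. Within subclusters, wild-type mouse 3 and SIRT7-/- mice 1 and 2 could be compared. Ctsd was at 3.01 against 4.76 and 4.01 CP10K in the unnamed subcluster and at 0.434 against 0.976 and 0.992 in the larger dendritic 2-like one, but at 0.773 against 0.611 and 0.243 in dendritic 1-like cells, on 3 to 13 UMIs per mouse. It was also higher in monocyte-like cells, at 0.776 against a mean of 1.72 ± 0.903 (SD, n = 2). In cycling-like cells it was at 0.0226 against 0.789 ± 0.336 (SD, n = 2). The part of the class make-up in the difference was not tested. Ctsz differed by 0.50 ± 0.257 and Ctsb by 0.53 ± 0.269, and the other members by less, down to 0.05 ± 0.241 for Ctsh. The macrophage markers summed to 4.06 to 4.84 in wild-type and 4.95 to 6.79 CP10K in SIRT7-/- dendritic-like cells, 8 of 10 higher, and the endothelial markers to 0.179 to 0.375 and 0.518 to 0.648, 10 of 10 higher. Their part in the differences was not tested.

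Endothelial-like cells, compared in 3 wild-type and 2 SIRT7-/- mice, had a higher mean in SIRT7-/- mice for 8 of 10 members, with a median of 0.32 against -0.05 over all 10684 genes tested. Ctsl, their leading cathepsin, was at 13.5, 14.5 and 9.56 CP10K in wild-type and 16.3 and 14.9 in SIRT7-/- mice (0.33 ± 0.315). For Ctsl, Ctsc and Ctsz both SIRT7-/- mice stood above all wild-type mice, as for 9.56% of all genes, and for none did both stand below (12.8%). Lgmn was at 8.72, 13.1 and 9.84 in wild-type and 5.60 and 11.6 in SIRT7-/- mice (-0.36 ± 0.333), with the groups intermixed. Ctsd was at 6.88, 7.23 and 8.54 against 6.92 and 8.89 (0.06 ± 0.323), with the groups intermixed. The Ctss difference of 1.27 ± 0.628 rested on 4 to 19 UMIs per mouse. Macrophage markers summed to 0.393 to 2.43 CP10K in wild-type and 2.98 to 6.51 in SIRT7-/- endothelial-like cells (9 of 10 higher), and their part in this difference was not tested.

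In T-like cells the 9 members tested had higher means in SIRT7-/- mice, and none stood apart from the wild-type mice, against 5.23% of all genes above and 6.31% below. Ctsd, their most abundant member, was at 2.47, 4.04 and 2.89 CP10K in wild-type and 3.20, 3.64 and 4.04 in SIRT7-/- mice (0.23 ± 0.238). The median difference was 0.30, against -0.05 over all genes, 0.039 once cells were thinned to 500 UMIs and 0.42 without wild-type mouse 3. Ctss was at 0.159, 0.267 and 1.32 in wild-type and 0.932, 1.45 and 0.592 in SIRT7-/- mice (1.13 ± 0.654), and Lgmn at 0.127, 0.163 and 0.725 against 0.741, 0.436 and 0.115. For both genes wild-type mice 1 and 2 were low and wild-type mouse 3 lay among the SIRT7-/- mice. For Lgmn, SIRT7-/- mouse 3 was lower still, at 0.115. The summed macrophage markers were lowest in wild-type mice 1 and 2, at 0.325, 0.438 and 2.28 CP10K in wild-type and 5.68, 1.96 and 0.844 in SIRT7-/- T-like cells. The part of these markers in the Ctss and Lgmn levels was not tested.

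Plasma B-like cells allowed 2 mice against 2. Of 9 members tested 6 had a higher and 3 a lower mean in SIRT7-/- mice, with a median of 0.25 against 0.22 over all genes, and of -0.11 without wild-type mouse 2. Ctsd (0.261 and 0.827 against 1.03 and 0.980 CP10K, 1.01 ± 0.481) and Ctsz (0.928 and 1.05 against 1.23 and 1.14) stood above in both SIRT7-/- mice, a pattern shared by 25.5% of all genes, and Ctss (1.66 and 1.48 against 1.18 and 1.36) stood below, as did 11.2%. The Ctsd difference was 0.26 without wild-type mouse 2, 1.76 without wild-type mouse 3 and 0.44 with mice of 10 or more cells. In the same cells 9 neutrophil markers summed to 0.0391 and 0.236 CP10K in wild-type and 22.4 and 13.8 in SIRT7-/- mice (9 of 9 higher), 10 T cell markers to 0.0479 and 1.82 against 5.44 and 6.27, and 10 macrophage markers to 0.161 and 0.941 against 2.96 and 0.943 (10 of 10 higher each). None of these markers was at 0, and their part in the differences was not tested.

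In hepatocyte-like cells 8 of 9 members had a lower mean in SIRT7-/- mice, with a median of -0.47 against 0.15 over all genes, yet every member overlapped between the groups (9.52% of all genes stood above and 3.19% below). The spread between mice was wide. Ctsl was at 4.11, 2.70 and 1.12 CP10K in wild-type and 1.33, 0.617 and 5.35 in SIRT7-/- mice, so the highest and the lowest mouse were both SIRT7-/-. The median was -0.50 in the larger hepatocyte-like cluster alone and 0.19 in the smaller, so its direction depended on the cluster, and without SIRT7-/- mouse 2 it was 0.06.

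**Figure D5:**
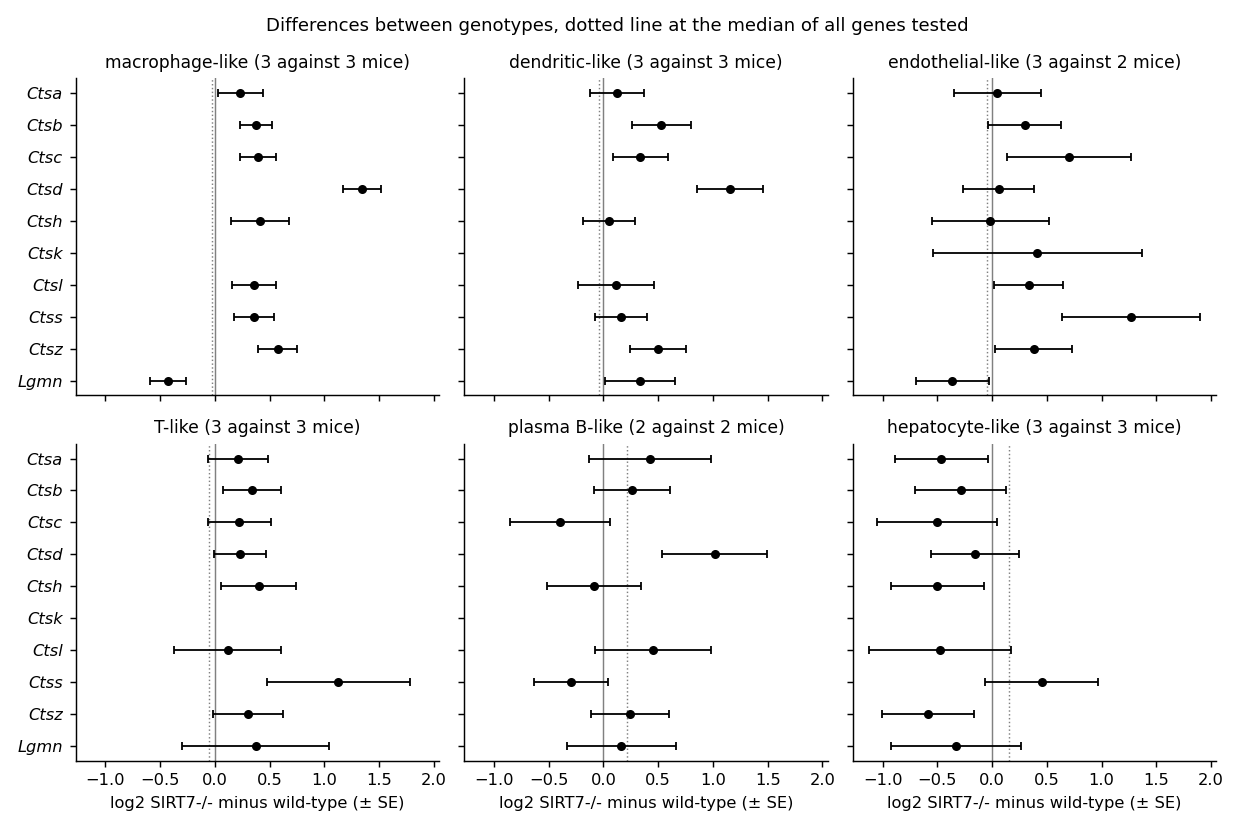
Difference in log2(mean CP10K + 0.05), SIRT7-/- minus wild-type, of each member in 6 classes (1 panel each, with the number of mice), as points with bars of ± 1 SE and a dotted line at the median of all genes tested. Ctsd lies farthest to the right in macrophage-like (1.34) and dendritic-like cells (1.15), Lgmn lies left of 0 in macrophage-like and endothelial-like cells, and most hepatocyte-like points lie left of 0.

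The rest of the lysosome was tested in the same fit, from lists of other cathepsins, inhibitors, acid hydrolases, membrane and proton pump proteins, and sorting and regulatory genes. In macrophage-like cells 2 of the 81 genes tested rose and none fell at an adjusted p under 0.05 (limma, all 9945 genes). Of all genes, 0.201% were called and 0.131% were called higher. At an unadjusted p under 0.05 in limma, 11 of the 81 were higher and 3 lower, against 10.6% of all genes in either direction. Cd63, a tetraspanin of late endosomes and lysosomes, was at 0.0388, 0.147 and 0.297 CP10K in wild-type and 1.62, 1.17 and 1.19 in SIRT7-/- mice (log2 difference 2.90, SE 0.433, limma adjusted p = 0.0254). Lipa, the acid lipase that splits cholesteryl esters and triglycerides in the lysosome, was at 2.87, 1.57 and 2.66 against 6.37, 5.48 and 6.31 (1.38, SE 0.228, adjusted p = 0.0318). SIRT7-/- mice were higher in 3 of 3 for both, with no overlap. The calls were not stable to leaving out mice: without any 1 wild-type mouse or without SIRT7-/- mouse 3 neither gene passed, with limma adjusted p of 0.0739 to 0.223 for Lipa and 0.0518 to 0.167 for Cd63, though each difference kept its direction. Both calls were also lost with a pseudocount of 0.01 (adjusted p = 0.0602 in limma for each), with no filter on low values (0.377 for each) and with plain eBayes (0.254 for Cd63 and 0.356 for Lipa). Cd63 alone was lost with limma voom (adjusted p = 0.0918) and with cells thinned to 500 UMIs (0.234), and Lipa alone without the 5% of cells with the highest doublet scores (0.0538). Wild-type Cd63 lay near the pseudocount, and its difference was 1.48 with a pseudocount of 0.5 and 0.50 from means of log2(CP10K + 1) over cells.

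The lists were mixed in direction in macrophage-like cells. Of 40 acid hydrolases tested 25 had a higher and 15 a lower mean in SIRT7-/- mice, and 1 (Lipa) passed the test. Among 26 membrane and proton pump genes 16 were higher and 10 lower, and 1 (Cd63) passed. Lamp1, an abundant lysosomal membrane protein, was at 12.3 ± 0.553 in wild-type and 11.8 ± 0.264 in SIRT7-/- mice, and Lamp2 at 4.64 ± 0.277 and 4.71 ± 0.458. None of the 9 sorting and regulatory genes, 3 other cathepsins, 3 inhibitors or 10 MHC class II loading genes passed. The median over the 81 lysosomal genes was 0.18. In dendritic-like (81 tested, 0.0308% of all genes called), endothelial-like (79, 0.328%), T-like (77, 0.12%), plasma B-like (68, 0.0782%) and hepatocyte-like cells (77, 0.122%) no such gene passed in the limma fit, nor with limma voom on summed UMIs. At an unadjusted p under 0.05, 2 were higher and 1 lower in dendritic-like cells, 0 and 2 in endothelial-like, 5 and 0 in T-like, 3 and 1 in plasma B-like and 3 and 2 in hepatocyte-like cells. Of all genes tested, 6.05%, 7.38%, 7.03%, 6.53% and 7.36% were under 0.05 in these classes, in either direction. The lysosomal counts leave out the MHC class II loading genes. Of these, 1 of 10 in endothelial-like, 1 of 10 in T-like and 3 of 8 in plasma B-like cells were higher at an unadjusted p under 0.05. None was lower at that level and none passed in limma. By mean alone, 9 of 10, 10 of 10 and 7 of 8 were higher in these classes. Their median log2 differences were 1.51, 1.18 and 1.03, against -0.05, -0.05 and 0.22 over all genes. In hepatocyte-like cells 6 of 7 were higher (0.48), but only 3 of 10 in macrophage-like (-0.07) and 2 of 10 in dendritic-like cells (-0.11).

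Over the lysosomal and the class II loading genes together, the smallest p-value in dendritic-like cells was that of Cstb (1.01, limma adjusted p = 0.454). In endothelial-like cells the smallest were those of Smpd1, the acid sphingomyelinase gene (-1.85, limma adjusted p = 0.364), and the class II loading gene H2-Ob (2.35, 0.448). Cd63 (1.58, limma adjusted p = 0.335) and the carboxypeptidase gene Prcp (1.09, 0.671) came first in T-like cells, the class II genes H2-Eb1 (1.29, 0.391) and H2-Ab1 (1.01, 0.499) in plasma B-like cells (where the smallest limma adjusted p among the 68 lysosomal genes was 0.692), and Prcp (1.29, 0.632) and the sulfatase gene Ids (-1.06, 0.652) in hepatocyte-like cells. These differences in log2 were not past the threshold.

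Cystatins, the inhibitors of cysteine cathepsins, had their own pattern of levels. Cst3, the secreted cystatin C, was most abundant in dendritic-like cells, at 70.9 ± 22.2 CP10K in wild-type and 68.0 ± 5.93 in SIRT7-/- mice. In macrophage-like cells Cst3 was at 10.6, 7.90 and 14.5 in wild-type and 21.4, 18.8 and 17.9 in SIRT7-/- mice (0.85, SE 0.209, limma adjusted p = 0.150), not past the threshold although the mice did not overlap. Cstb, the cytosolic stefin B, was at 1.63, 2.07 and 1.67 against 3.23, 4.16 and 3.56 (1.01, SE 0.194, limma adjusted p = 0.0663), also not past it. Among cathepsins outside the 10, Ctsw, of cytotoxic lymphocytes, was at 3.49 ± 0.429 and 3.85 ± 1.16 in T-like cells, and Ctsf at 0.645 ± 0.252 and 0.416 ± 0.0886 in macrophage-like cells.

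Across 40 mouse-by-class values the genes whose pattern was most like that of each member were found by Pearson's r of log2(mean CP10K + 0.05) given with no test, since classes of 1 library share its depth. Ctss went with Pld4 (0.941), Lgmn with the scavenger receptor Msr1 (0.932), Ctsb with Tmem86a (0.911), Hexa (0.902) and Ctsa (0.896), Ctsa with Adam17 (0.915), Ctsc with C3ar1 (0.903), Ctsz with Unc93b1 (0.888), Ctsh with Ptprj (0.862), Ctsl with Serinc1 (0.866) and Ctsd with Itm2b (0.860). For Ctsk the highest value was 0.604, with Tspan9, and rested on few UMIs.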

How the data were processed

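The authors aligned the reads of the 6 libraries to mm10 with Cell Ranger 6.0.0, removed cells with under 500 genes or over 5% mitochondrial UMIs, scaled each cell to 10000 and took the natural log with an offset of 1. These natural log values were deposited as 1 table of 11610 cells and 16623 genes. Undoing the log and the scale gave whole UMIs for all 12961041 values above 0 (within 0.02 of a whole number), so depth per cell was known. Cells were grouped by mouse from the labels and clustered with scanpy 1.11.5 and leidenalg 0.10.2 (python 3.11.15) on 1000 variable genes and 50 components, with 3 neighbours per mouse, at a resolution of 0.35, and 0.7 for finer groups. Clusters were named from fixed marker genes, with at least 3 detected. Scrublet marked 46 cells (0.396%). That share was taken as too low to rely on, though this was not tested, and doublets were kept.

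CP10K was averaged over the cells of a class in each mouse. SIRT7-/- and wild-type means were compared on log2(CP10K + 0.05) with limma 3.58.1 (R 4.3.3, statmod 1.5.0, trend and robust options) over all genes averaging 0.05 CP10K or more, and p-values were adjusted by the Benjamini-Hochberg method. The fit was tested on simulated data. The 10 members, the gene lists and the markers were chosen with earlier results of these data known. The text names all members, other lysosomal genes past the threshold or else the 2 with the smallest p in a class, other cathepsins and cystatins by level, and the genes most like each member. One gene that this rule names in dendritic-like cells is not reported here. A separate animal gave each library, so p-values measure the spread between mice. Alternatives changed the pseudocount, the filter, the scale, the clustering, the cells, the model and the mice entered.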

Additional observations from a re-analysis of the deposited data

How the results depend on the processing

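The Ctsd and Lgmn differences in macrophage-like cells kept their direction under all 24 alternatives. Ctsd ran from 1.22 to 1.69 and Lgmn from -0.51 to -0.17 (log2). Not all 24 could change these estimates. Both stayed as reported with another filter, plain eBayes, a lower minimum of cells per mouse or a replicate block. Entering mice of 50 or more cells was the same fit as leaving out wild-type mouse 2. The members' median in macrophage-like cells was 0.20 with cells thinned to 500 UMIs. The count of other lysosomal genes called in macrophage-like cells, 2 as reported, was 0 with a pseudocount of 0.01, with no filter on low values, with plain eBayes or with mice of 50 or more cells, 1 with limma voom on summed UMIs and 1 without the 5% highest Scrublet scores (an alternative chosen after seeing the data), and 0 to 3 leaving out 1 mouse at a time. Leaving out 1 mouse gave 0 to 1 such calls in dendritic-like cells (1 without SIRT7-/- mouse 1) and in endothelial-like cells (1 when wild-type mouse 3 was dropped). The range for plasma B-like cells was 0 to 7 (7 when wild-type mouse 3 was dropped, where the lone wild-type mouse is assumed to vary like the others). The members' median in T-like cells was 0.20 with a pseudocount of 0.5, 0.055 from means of log2(CP10K + 1) over cells and 0.039 thinned. It was 0.20 with all lymphoid classes together, and 0.22 to 0.42 leaving out 1 mouse. In endothelial-like cells it was 0.0061 from means of log2(CP10K + 1). In plasma B-like cells it was -0.040 from such means and 1.74 thinned, with -0.11 to 0.51 leaving out 1 mouse. In the smaller hepatocyte-like cluster it was 0.19. The cause of these shifts was not tested. The macrophage was the leading class for 7 or 8 members under every alternative tried. The plasma B-like class gave no value with mice of 50 or more cells. Thinned cells and classes near 20 cells limit what low members such as Ctsk, Ctss and Lgmn in lymphoid cells can show.

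The labels give both groups replicate numbers 1 to 3. Deviations of mice with the same number correlated at -0.107 to 0.144 over genes, and no class had all its pairs above 0.1, so the numbers were not taken to pair the mice. With a replicate block 4 other lysosomal genes were called in macrophage-like cells and 1 in endothelial-like cells, and the block could not be fitted in plasma B-like cells.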
